A study of Homo sapiens with 8 samples.

Results

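The matrix metalloproteases (MMP), the ADAMTS proteases and the tissue inhibitors of metalloproteases (TIMP) were examined in a glioblastoma cell model exposed to temozolomide (TMZ). Members were taken by their symbol alone: MMP with a number and an optional A or B, ADAMTS with a number, or TIMP with a number from 1 to 4. This gave 47 of the 26364 genes in the count file, of which 24 are MMP, 19 are ADAMTS and 4 are TIMP genes. Of these members, 24 had enough reads to be tested (7 MMP, 14 ADAMTS and 3 TIMP genes), among 14201 tested genes in all. Reads in 1 group are enough to pass this filter, and ADAMTS10, for example, passed it with 0 to 6 counts per SurvNESmut-GFP library.

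Total RNA was sequenced from LN229, an established human glioblastoma cell line, in which Survivin (BIRC5), an inhibitor of apoptosis that also takes part in chromosome segregation, was expressed as a fusion with eGFP. The Surv-GFP clone carries Survivin with a functional nuclear export signal (NES) and mostly cytoplasmic protein. The SurvNESmut-GFP clone carries the NES-mutated form, which stays in the nucleus. Both fusions were expressed from pcDNA3.1 under G418 selection, and RNA was taken from untreated cells and from cells kept for 48 h in 50 µM TMZ, an alkylating drug, with 2 libraries per group lettered a and b. Each construct is represented here by 1 stable clone, so the NES status and the clone cannot be told apart. Parental LN229 cells were not analysed here.

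MMPs are zinc-dependent endopeptidases that cut collagens, laminins and other matrix proteins as well as cell surface molecules. Most are secreted as inactive precursors, while the membrane-type MMPs (MMP14, MMP15, MMP16, MMP17, MMP24 and MMP25) act at the cell surface. ADAMTS proteases carry thrombospondin repeats and cut proteoglycans such as aggrecan and versican, process procollagens or shape microfibrils. TIMPs block the active site of these enzymes, and TIMP3, which is held in the matrix, also blocks many ADAMTS and ADAM enzymes. On the cell surface, MMP14 together with TIMP2 activates the precursor of MMP2, a gelatinase linked to glioma invasion.

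Many inducible MMP genes are known for a TATA box and an AP-1 site close before their start, whereas promoters of broadly expressed genes are often rich in GC boxes. The letters of these motifs were therefore looked up in the RefSeq promoter windows (GRCh38.p14, 250 bases before and 50 after the gene start), which were given for 27 of the 47 members. ADAMTS10 has 2 windows, and a member was counted where any of its windows holds the letters. On both strands the AP-1 motif was searched as TGANTCA, the TATA box as TATAAA and the GC box as GGGCGG, and neighbouring GC boxes may overlap. In the sequences below, which hold only the bases before the start, capitals mark these letters. ADAMTS7 is shown because it rose in both clones upon TMZ, MMP15 because it fell in 1 clone, TIMP3 as the inhibitor with the larger fall in SurvNESmut-GFP, ADAMTS12 as the tested member with the AP-1 letters, and MMP10 as an inducible MMP with almost no reads.
ADAMTS7 (chr15:78811465-78811714, minus strand): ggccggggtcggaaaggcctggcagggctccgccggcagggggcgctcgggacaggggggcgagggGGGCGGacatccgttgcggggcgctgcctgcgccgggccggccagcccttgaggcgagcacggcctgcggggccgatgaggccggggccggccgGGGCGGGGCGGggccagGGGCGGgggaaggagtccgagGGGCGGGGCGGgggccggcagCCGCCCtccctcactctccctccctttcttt
MMP15 (chr16:58025504-58025753, plus strand): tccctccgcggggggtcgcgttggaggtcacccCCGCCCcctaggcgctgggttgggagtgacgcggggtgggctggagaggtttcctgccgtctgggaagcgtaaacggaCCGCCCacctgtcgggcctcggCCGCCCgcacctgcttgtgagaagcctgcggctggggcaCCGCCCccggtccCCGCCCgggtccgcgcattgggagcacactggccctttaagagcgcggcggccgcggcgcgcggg
TIMP3 (chr22:32801455-32801704, plus strand): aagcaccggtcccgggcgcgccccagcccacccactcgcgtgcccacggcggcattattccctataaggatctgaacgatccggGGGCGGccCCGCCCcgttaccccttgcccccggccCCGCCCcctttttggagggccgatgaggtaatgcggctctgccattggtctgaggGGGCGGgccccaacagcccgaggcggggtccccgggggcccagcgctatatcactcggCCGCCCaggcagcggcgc
ADAMTS12 (chr5:33891991-33892240, minus strand): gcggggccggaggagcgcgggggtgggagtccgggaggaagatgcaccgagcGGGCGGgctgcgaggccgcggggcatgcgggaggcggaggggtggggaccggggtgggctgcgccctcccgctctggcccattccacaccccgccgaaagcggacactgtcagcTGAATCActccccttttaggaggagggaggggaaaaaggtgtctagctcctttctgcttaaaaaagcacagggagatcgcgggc
MMP10 (chr11:102780629-102780878, minus strand): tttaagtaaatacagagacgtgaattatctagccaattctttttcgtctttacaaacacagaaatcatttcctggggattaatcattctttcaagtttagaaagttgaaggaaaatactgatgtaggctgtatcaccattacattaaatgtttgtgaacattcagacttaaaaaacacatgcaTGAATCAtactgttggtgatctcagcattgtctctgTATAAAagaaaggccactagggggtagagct
In ADAMTS12 the AP-1 letters begin at position -84, counted so that the last base before the start is -1. MMP10 has the AP-1 letters at -67 and TATAAA at -31. ADAMTS7, MMP15 and TIMP3 hold neither motif, but 7, 5 and 5 GC boxes. Over all windows, the AP-1 letters were in 1 of 13 tested members (7.69%) and 3 of 14 untested members (21.4%), against 7.71% of all 35116 RefSeq windows. TATAAA was in 1 of 13 tested members (7.69%, the second ADAMTS10 window) and 6 of 14 untested members (42.9%), against 11.5% of all windows. GGGCGG was in 12 of 13 tested members (92.3%) and 7 of 14 untested members (50%), against 45% of all windows. By family, the AP-1 letters and TATAAA of untested members were in MMP genes only (3 and 6 of 9). GGGCGG was in 3 of 3 tested and 2 of 9 untested MMP genes, and in 7 of 8 tested and 4 of 4 untested ADAMTS genes. In the TIMP genes it was in 2 of 2 tested and 1 of 1 untested. The shares of tested and untested members therefore also reflect the mix of families. These are letter matches, given as a description and without a test.

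Read counts on genes ranged from 15826923 to 18861603 per library, at which 3 counts correspond to 0.16 to 0.189 CPM (counts scaled to a library of 1e+06 reads). Pearson correlations of log2 CPM were at least 0.994 within a group and at most 0.986 between groups. The replicates of TMZ-exposed SurvNESmut-GFP differed most, with a chi-square per degree of freedom of 5.744 against 2.203 to 2.661 in the other groups. Of the genes that bear on the labels, CDKN1A, the p53 target p21, rose from 1598 and 1400 to 16973 and 16991 counts upon TMZ in Surv-GFP and from 2166 and 2141 to 7335 and 7802 counts in SurvNESmut-GFP. BIRC5, whose counts can include the fusion transcript, had 20165 to 36242 counts in the Surv-GFP libraries and 4008 to 7507 in the SurvNESmut-GFP libraries. The neural progenitor marker nestin (gene NES, not the export signal) was present with 9647 to 18097 counts, whereas GFAP had 0 to 17 counts, PTPRC, the pan-leukocyte marker, 0 to 3 counts, and MGMT and AIF1 0 counts in all libraries.

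Per kilobase of exon, the members spanned over 3 orders of magnitude. MMP2, TIMP3, TIMP2 and TIMP1 led with 253, 244, 201 and 177 CPM per kb as the mean of the 4 groups, followed by MMP14 with 95.2 and MMP17 with 25.1 CPM per kb. The 14 ADAMTS genes lay lower, from 18.7 (ADAMTS1) and 7.49 (ADAMTS7) down to 0.45 (ADAMTS13) and 0.214 CPM per kb (ADAMTS10). The order of the leading 4 changed with the group. In untreated SurvNESmut-GFP it was TIMP3, MMP2, TIMP2 and TIMP1, with no overlap between the libraries of neighbours. MMP2 was highest and TIMP1 lowest in untreated Surv-GFP and in TMZ-exposed SurvNESmut-GFP, where TIMP3 and TIMP2 overlapped. In Surv-GFP after TMZ, TIMP2 was lowest, and TIMP3 overlapped with both MMP2 and TIMP1. Over all 47 members, the summed level was 4388 to 4553 CPM in untreated Surv-GFP, 3406 to 3608 CPM after TMZ, 5042 to 5058 CPM in untreated SurvNESmut-GFP and 4222 to 4645 CPM after TMZ.

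**Figure D1:**
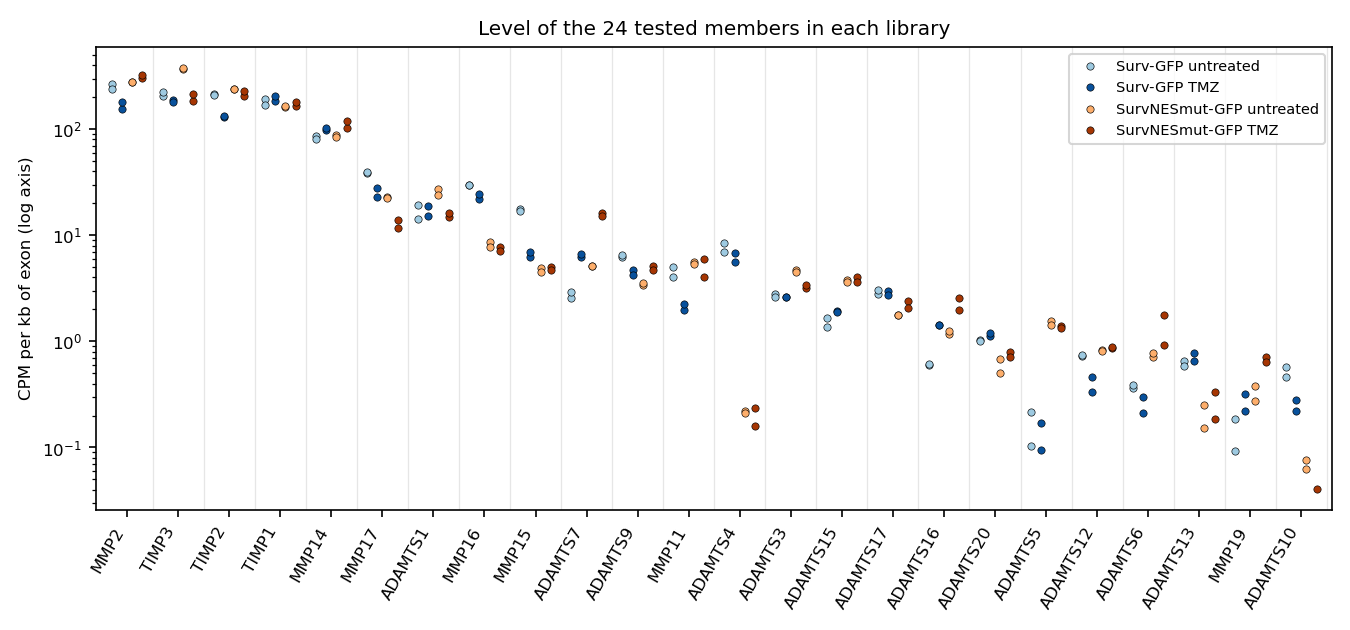
Level of each tested member in CPM per kb of exon (log axis), 1 point per library and 4 colours for the groups, ordered by the mean level. The 3 inhibitors, MMP2 and MMP14 lie highest, and ADAMTS4 and ADAMTS5 show the widest gaps between the clones. ADAMTS10 has no point for SurvNESmut-GFP TMZ replicate b, where it had 0 counts.

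The first comparison asked how the families responded to TMZ in the clone with functional NES. A gene was called where the edgeR quasi-likelihood F test gave a Benjamini-Hochberg adjusted p under 0.05 over all tested genes. In Surv-GFP, 4 of the 24 tested members rose and 11 fell (16.7% and 45.8%), while 30.1% of all tested genes rose and 28.9% fell. The median log2 fold change was -0.26 over the members and 0.00 over all tested genes. At least 2-fold changes (at least 1 on the log2 scale, with a call) were found for 5 members (20.8%), against 10.5% of all tested genes. ADAMTS7 and ADAMTS16 rose, and MMP15, MMP11 and ADAMTS10 fell. In bulk RNA, fewer cells that express a gene and less RNA per cell cannot be told apart.

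In SurvNESmut-GFP, 8 members rose and 5 fell upon TMZ (33.3% and 20.8%), against 18.6% and 19.1% of all tested genes. Here the median log2 fold change was 0.07 over the members and 0.003 over all tested genes, and 2 members, ADAMTS7 and MMP19, changed at least 2-fold (8.33%, against 4.13%). The latter count was 1 with DESeq2 or without either untreated replicate, and 5 without the TMZ replicate b. The count of risen members fell to 5 with DESeq2, to 4 without the untreated replicate a and to 5 without the untreated replicate b or the TMZ replicate a. Tested directly, the TMZ effect differed between the clones for 11 members: it was larger, meaning more positive, in SurvNESmut-GFP for 8 and smaller for 3 (33.3% and 12.5%), against 16.6% and 20.2% of all tested genes. A difference of at least 2-fold was found for 3 members (12.5%), against 5.49%, and for 5 when scaled by library size alone. The median difference was 0.15 on the log2 scale over the members and -0.001 over all tested genes. All 3 comparisons share libraries, so their counts are not independent of each other.

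**Figure D2:**
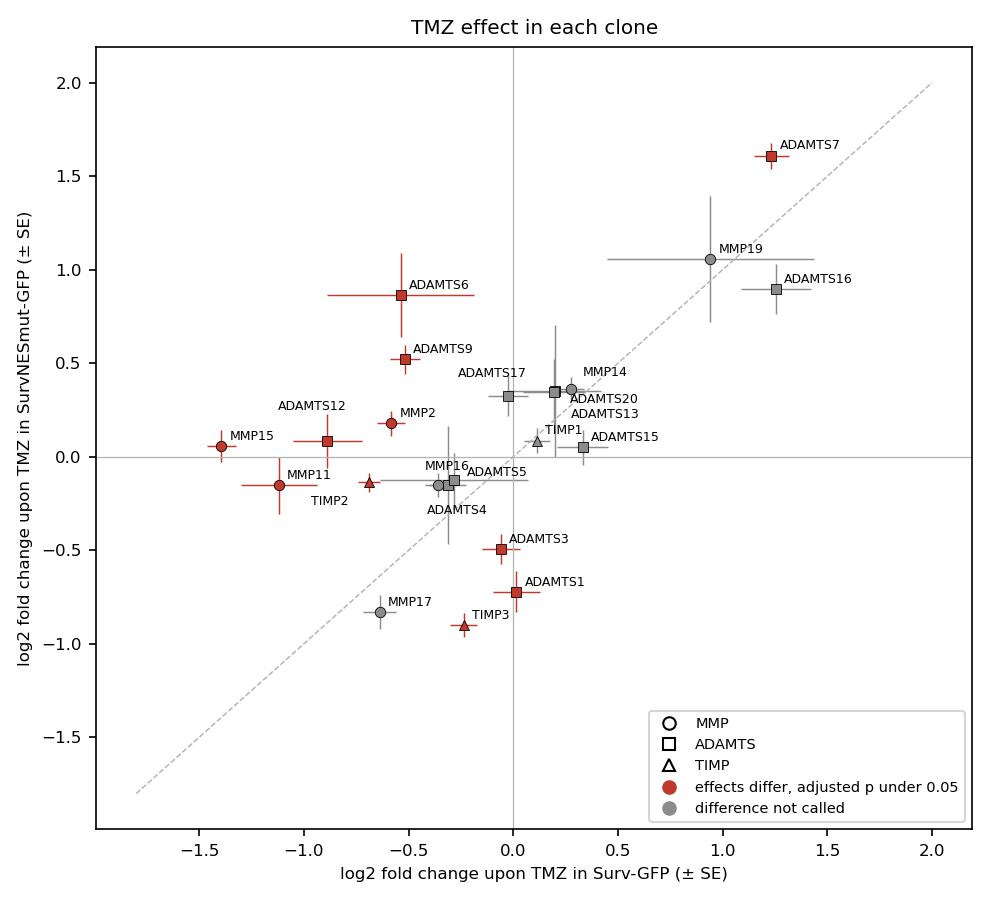
log2 fold change upon TMZ in SurvNESmut-GFP (vertical) against Surv-GFP (horizontal) for 23 tested members, with SE bars, and the line of equal effects dashed. Red marks the 11 members whose effects differed at an adjusted p under 0.05; MMP15, MMP11, ADAMTS12, MMP2, TIMP2, ADAMTS9 and ADAMTS6 lie above the line on the left, and ADAMTS1, ADAMTS3 and TIMP3 below it. ADAMTS10 is left out because its TMZ-exposed SurvNESmut-GFP libraries held 3 counts in all.

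Membrane-type MMPs did not respond alike. MMP15 (MT2-MMP) was at 74.8 and 71.9 CPM in untreated Surv-GFP, 26.5 and 29.3 CPM in Surv-GFP after TMZ, 20.8 and 19.2 CPM in untreated SurvNESmut-GFP and 21.5 and 20.1 CPM in SurvNESmut-GFP after TMZ. It was lower in both TMZ-exposed Surv-GFP libraries than in the untreated pair, a 2.63-fold fall (log2 fold change -1.39 ± 0.07 SE, adjusted p = 5.23e-11), while the SurvNESmut-GFP libraries overlapped (log2 fold change 0.06 ± 0.09 SE, adjusted p = 0.633). The effects differed by 1.45 ± 0.11 SE on the log2 scale (adjusted p = 6.08e-08), the largest called difference of the 24 members. MMP16 (MT3-MMP) was at 344 and 347 CPM in untreated Surv-GFP, 255 and 283 CPM in Surv-GFP after TMZ, 98.9 and 90.1 CPM in untreated SurvNESmut-GFP and 88.6 and 81.7 CPM in SurvNESmut-GFP after TMZ. Its fall was 1.28-fold in Surv-GFP (adjusted p = 6.18e-05), and neither the change in SurvNESmut-GFP (log2 fold change -0.15 ± 0.07 SE, adjusted p = 0.0849) nor the difference (adjusted p = 0.0743) passed the threshold. The difference passed with library size alone (adjusted p = 0.0239), without the filter (adjusted p = 0.0275), without the Surv-GFP TMZ replicate b (adjusted p = 0.0175) and without the SurvNESmut-GFP TMZ replicate b (adjusted p = 0.0128). The fall in SurvNESmut-GFP passed without the filter (adjusted p = 0.0484) and without the TMZ replicate a (adjusted p = 0.0267).

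MMP17 (MT4-MMP), which is held to the membrane by a lipid anchor, fell in both clones, by 0.64 on the log2 scale in Surv-GFP (adjusted p = 2.56e-06) and by 0.83 in SurvNESmut-GFP (adjusted p = 1.98e-06). Its level went from 99.8 and 102 CPM to 58.9 and 70.97 CPM and from 58.8 and 57.98 CPM to 29.9 and 35.9 CPM. MMP14 (MT1-MMP), the activator of proMMP2, rose in both, from 319 and 302 CPM to 368 and 382 CPM in Surv-GFP (1.21-fold, adjusted p = 0.0015) and from 326 and 317 CPM to 379.7 and 447 CPM in SurvNESmut-GFP (1.29-fold, adjusted p = 0.000281). For both genes the untreated and TMZ-exposed libraries of a clone did not overlap, and the difference between the effects did not pass the threshold (adjusted p = 0.226 and 0.474). The difference passed for MMP17 without the Surv-GFP TMZ replicate a (adjusted p = 0.0415) or the SurvNESmut-GFP TMZ replicate b (adjusted p = 0.0202), and for MMP14 without the SurvNESmut-GFP TMZ replicate a (adjusted p = 0.0201).

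The other partners of MMP14 went down in Surv-GFP. MMP2 was at 1266 and 1126 CPM in untreated Surv-GFP, 737 and 861 CPM in Surv-GFP after TMZ, 1316 and 1305 CPM in untreated SurvNESmut-GFP and 1434 and 1535 CPM in SurvNESmut-GFP after TMZ. It fell 1.497-fold in Surv-GFP (log2 fold change -0.58 ± 0.07 SE, adjusted p = 1.33e-06) and was 1.13-fold higher after TMZ in SurvNESmut-GFP (log2 fold change 0.18 ± 0.07 SE, adjusted p = 0.0427), so that the effects had opposite signs and differed by 0.76 ± 0.09 SE (adjusted p = 1.08e-05). The rise in SurvNESmut-GFP did not pass with DESeq2 (adjusted p = 0.0531) or without the untreated replicate a or b or the TMZ replicate b of that clone (adjusted p = 0.142, 0.176 and 0.0938). TIMP2 was at 879.6 and 855 CPM in untreated Surv-GFP, 536 and 540.0 CPM in Surv-GFP after TMZ, 975 and 981 CPM in untreated SurvNESmut-GFP and 839 and 940.5 CPM in SurvNESmut-GFP after TMZ, and its fall in Surv-GFP was 1.61-fold (log2 fold change -0.69 ± 0.05 SE, adjusted p = 8.74e-09). In SurvNESmut-GFP the fall was small (log2 fold change -0.14 ± 0.05 SE, adjusted p = 0.0462) and was lost without any library other than the TMZ replicate b of that clone, with a log2 fold change of -0.05, adjusted p = 0.417 without the TMZ replicate a and of -0.10, adjusted p = 0.132 when scaled by library size alone. The difference between the effects was 0.55 ± 0.07 SE (adjusted p = 2.13e-05).

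TIMP3 showed the reverse order. It stood at 953 and 1037 CPM in untreated Surv-GFP, 865 and 823 CPM in Surv-GFP after TMZ, 1712 and 1732 CPM in untreated SurvNESmut-GFP and 849 and 997 CPM in SurvNESmut-GFP after TMZ. The fall was 1.87-fold in SurvNESmut-GFP (log2 fold change -0.90 ± 0.06 SE, adjusted p = 1.54e-08) and 1.18-fold in Surv-GFP (log2 fold change -0.24 ± 0.06 SE, adjusted p = 0.00401), and the latter did not pass without the untreated replicate b (log2 fold change -0.17, adjusted p = 0.076). The effects differed by -0.66 ± 0.09 SE (adjusted p = 2.58e-05). TIMP1, a secreted inhibitor of most MMPs, was at 279 and 246 CPM in untreated Surv-GFP, 269 and 299 CPM in Surv-GFP after TMZ, 234 and 239 CPM in untreated SurvNESmut-GFP and 242 and 261 CPM in SurvNESmut-GFP after TMZ, and its ranges overlapped in Surv-GFP and did not overlap in SurvNESmut-GFP. Its log2 fold change was 0.11 ± 0.06 SE in Surv-GFP (adjusted p = 0.143) and 0.09 ± 0.06 SE in SurvNESmut-GFP (adjusted p = 0.317). Without the untreated or the TMZ replicate a, the Surv-GFP value passed (adjusted p = 0.0302 and 0.0499).

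**Figure D3:**
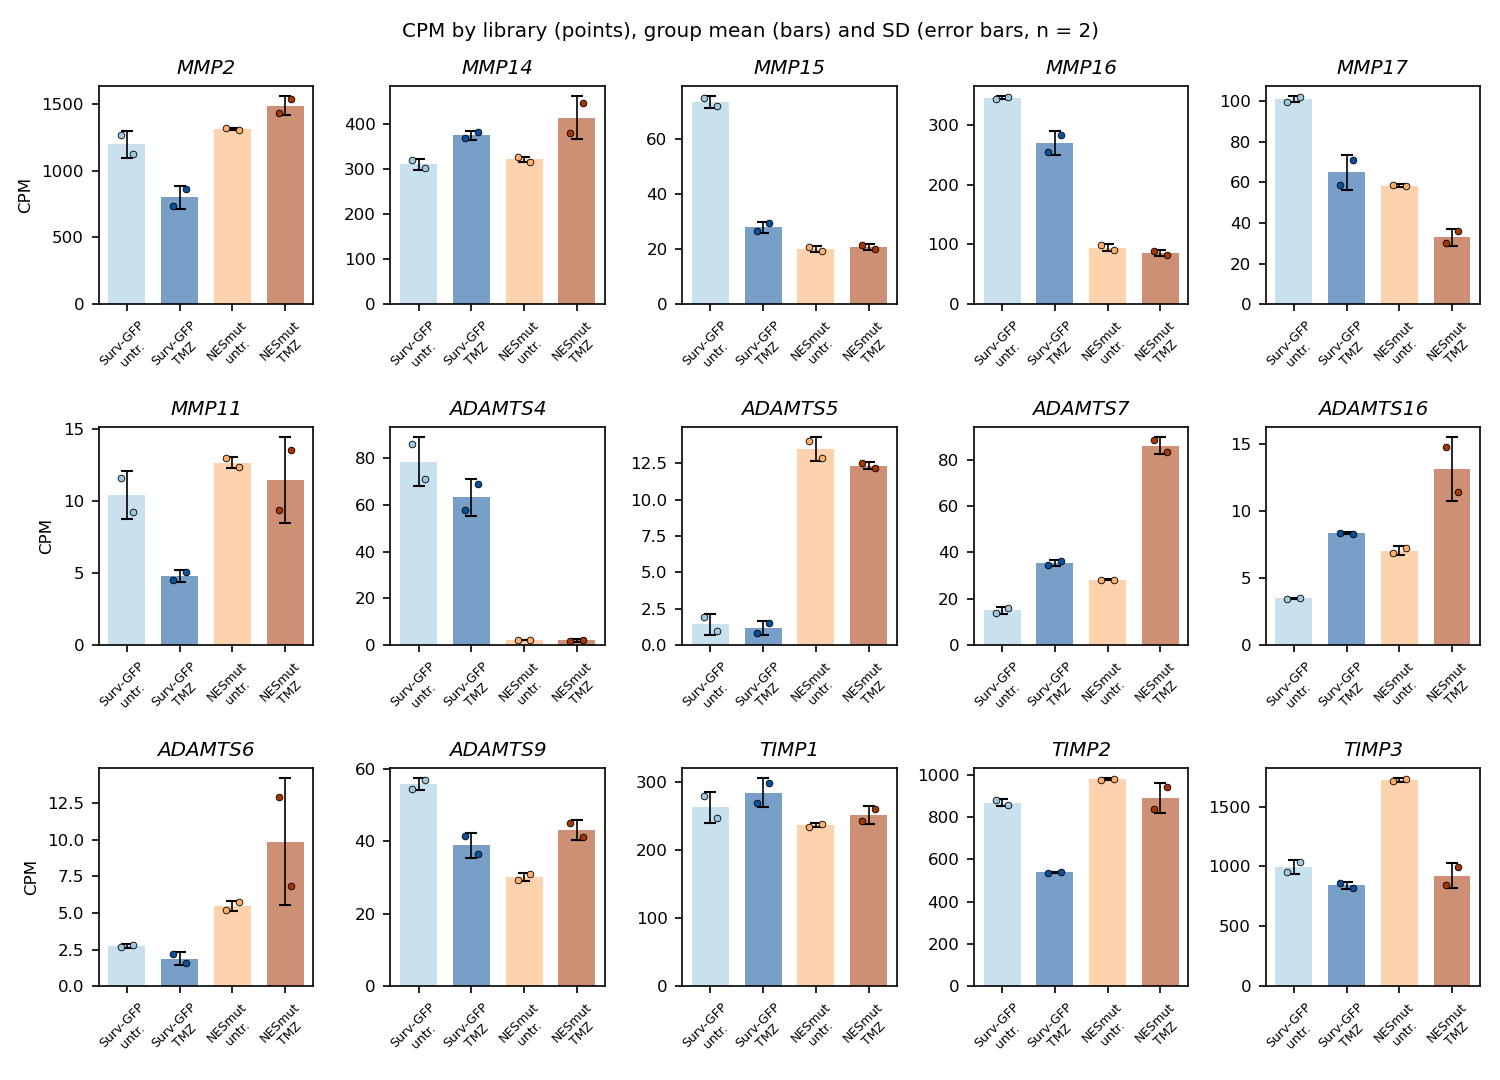
CPM of 15 tested members by group; points are libraries, bars the group means and error bars the SD (n = 2), with NESmut short for SurvNESmut-GFP and untr. for untreated. MMP15, MMP2, MMP11 and TIMP2 drop upon TMZ in Surv-GFP, TIMP3 drops most in SurvNESmut-GFP, and ADAMTS7 and ADAMTS16 rise in both clones.

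Among the secreted MMPs, MMP11 (stromelysin 3) was at 11.6 and 9.21 CPM in untreated Surv-GFP, 4.49 and 5.11 CPM in Surv-GFP after TMZ, 12.95 and 12.4 CPM in untreated SurvNESmut-GFP and 9.35 and 13.5 CPM in SurvNESmut-GFP after TMZ. In Surv-GFP it fell 2.17-fold (log2 fold change -1.12 ± 0.18 SE, adjusted p = 5.35e-05), whereas in SurvNESmut-GFP the exposed libraries lay on both sides of the untreated pair (log2 fold change -0.15 ± 0.15 SE, adjusted p = 0.46). The difference was 0.97 ± 0.24 SE (adjusted p = 0.00447). Without the SurvNESmut-GFP TMZ replicate b, a fall passed in that clone too (log2 fold change -0.43, adjusted p = 0.0233). Exons of MMP11 overlap the opposite-strand gene CHCHD10 over 4.21% of their length, and CHCHD10 had 129 to 171 counts untreated and 204 to 317 after TMZ. MMP19, a basement membrane protease, was the scarcest tested MMP, at 0.217 and 0.441 CPM in untreated Surv-GFP, 0.748 and 0.516 CPM in Surv-GFP after TMZ, 0.65 and 0.889 CPM in untreated SurvNESmut-GFP and 1.69 and 1.51 CPM in SurvNESmut-GFP after TMZ. It rose 2.08-fold in SurvNESmut-GFP (log2 fold change 1.06 ± 0.34 SE, adjusted p = 0.0205), a call lost with DESeq2 (adjusted p = 0.209) and without 3 single libraries, namely either untreated replicate or the TMZ replicate a of that clone (adjusted p 0.160, 0.0515 and 0.102). In Surv-GFP the value was similar and did not pass (log2 fold change 0.94 ± 0.49 SE, adjusted p = 0.113). MMP19 had only 4 to 29 counts per library, and 17.4% of its exon length is shared with the opposite-strand gene TMEM198B, which had 246 to 792 counts, fell upon TMZ in Surv-GFP (log2 fold change -0.35 ± 0.08 SE, adjusted p = 0.000859) and had -0.11 ± 0.10 SE in SurvNESmut-GFP (adjusted p = 0.415).

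ADAMTS7, known for cutting cartilage oligomeric matrix protein and for a link to atherosclerosis, rose in both clones. It was at 13.98 and 16.1 CPM in untreated Surv-GFP, 34.4 and 36.3 CPM in Surv-GFP after TMZ, 28.1 and 28.3 CPM in untreated SurvNESmut-GFP and 88.5 and 83.4 CPM in SurvNESmut-GFP after TMZ, so that no exposed library overlapped an untreated library of its clone. The rise was 2.35-fold in Surv-GFP (log2 fold change 1.23 ± 0.08 SE, adjusted p = 1.92e-09) and 3.05-fold in SurvNESmut-GFP (log2 fold change 1.61 ± 0.07 SE, adjusted p = 3.93e-11). The difference of 0.38 ± 0.11 SE passed (adjusted p = 0.0124) but not without the Surv-GFP untreated replicate b (0.27, adjusted p = 0.127) or TMZ replicate a (0.34, adjusted p = 0.0513). A pseudogene copy, ADAMTS7P1, was listed at 0 counts in all libraries. ADAMTS16 was at 3.47 and 3.53 CPM in untreated Surv-GFP, 8.39 and 8.32 CPM in Surv-GFP after TMZ, 6.83 and 7.28 CPM in untreated SurvNESmut-GFP and 14.8 and 11.4 CPM in SurvNESmut-GFP after TMZ. It also rose in both clones, 2.39-fold in Surv-GFP (adjusted p = 6.26e-06) and 1.86-fold in SurvNESmut-GFP (adjusted p = 7.07e-05), without overlap, and the difference did not pass (-0.36 ± 0.22 SE, adjusted p = 0.22) except without the SurvNESmut-GFP TMZ replicate a (adjusted p = 0.0399).

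ADAMTS9, a versican-cutting protease, moved in opposite directions. It was at 54.5 and 56.8 CPM in untreated Surv-GFP, 41.3 and 36.4 CPM in Surv-GFP after TMZ, 29.3 and 30.9 CPM in untreated SurvNESmut-GFP and 45.05 and 41.1 CPM in SurvNESmut-GFP after TMZ, a fall by 0.52 on the log2 scale in Surv-GFP (adjusted p = 1.14e-05) and a rise of 0.52 ± 0.08 SE in SurvNESmut-GFP (adjusted p = 5.8e-05). The difference was 1.04 ± 0.11 SE (adjusted p = 1.43e-06). After TMZ the 4 libraries of both clones lay between 36.4 and 45.05 CPM, whereas the untreated clones were apart. ADAMTS6 was at 2.65 and 2.81 CPM in untreated Surv-GFP, 2.19 and 1.55 CPM in Surv-GFP after TMZ, 5.203 and 5.72 CPM in untreated SurvNESmut-GFP and 12.9 and 6.805 CPM in SurvNESmut-GFP after TMZ. Its rise in SurvNESmut-GFP (log2 fold change 0.86 ± 0.22 SE, adjusted p = 0.0063) rested on the TMZ replicate a, with 221 counts against 108 in replicate b, and was 0.32, adjusted p = 0.234 without it and did not pass without the untreated replicate a either (adjusted p = 0.0681). In Surv-GFP the value was -0.54 ± 0.35 SE (adjusted p = 0.202, or 0.0483 without the SurvNESmut-GFP TMZ replicate b), and the difference of 1.40 ± 0.42 SE (adjusted p = 0.0146) was 0.85 without the SurvNESmut-GFP TMZ replicate a and did not pass without replicate b of either Surv-GFP group or the SurvNESmut-GFP untreated replicate a (adjusted p 0.0514 to 0.0606).

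ADAMTS12, another protease of cartilage oligomeric matrix protein, had the same pattern of calls as MMP11 and MMP15. It was at 6.55 and 6.68 CPM in untreated Surv-GFP, 2.99 and 4.19 CPM in Surv-GFP after TMZ, 7.48 and 7.28 CPM in untreated SurvNESmut-GFP and 7.71 and 7.94 CPM in SurvNESmut-GFP after TMZ, a 1.85-fold fall in Surv-GFP (log2 fold change -0.89 ± 0.17 SE, adjusted p = 0.00023) with no called change in SurvNESmut-GFP (log2 fold change 0.08 ± 0.14 SE, adjusted p = 0.68). The difference was 0.97 ± 0.22 SE (adjusted p = 0.00249). ADAMTS10, which binds fibrillin, was at 2.004 and 2.48 CPM in untreated Surv-GFP, 0.962 and 1.205 CPM in Surv-GFP after TMZ, 0.271 and 0.333 CPM in untreated SurvNESmut-GFP and 0.175 and 0 CPM in SurvNESmut-GFP after TMZ. In Surv-GFP it was 2.07-fold lower after TMZ (log2 fold change -1.05 ± 0.31 SE, adjusted p = 0.00765), although not with DESeq2 (adjusted p = 0.116) or without the untreated replicate b or the TMZ replicate a (adjusted p 0.0757 and 0.0784). In SurvNESmut-GFP it had 11 counts untreated and 3 after TMZ over both libraries, a ratio of 3.32 with a 95% counting interval of 0.876 to 18.5.

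ADAMTS1 and ADAMTS3 fell in SurvNESmut-GFP. For ADAMTS1, which cuts versican and aggrecan, the mean level was 87.05 ± 18.2 CPM (SD, n = 2) untreated and 88.1 ± 13.1 CPM after TMZ in Surv-GFP, where the libraries overlapped, and 133 ± 11.4 CPM and 80.7 ± 4.35 CPM in SurvNESmut-GFP, where they did not. The fall there was 1.65-fold (adjusted p = 7.32e-05) and differed from Surv-GFP by -0.74 ± 0.16 SE (adjusted p = 0.0015). ADAMTS3, a procollagen processing enzyme, went from 29.7 ± 0.807 CPM to 21.1 ± 1.25 CPM in SurvNESmut-GFP (adjusted p = 0.000159), against 17.4 ± 0.78 CPM and 16.7 ± 0.172 CPM in Surv-GFP, and its difference of -0.43 ± 0.12 SE (adjusted p = 0.00994) did not pass with DESeq2 (adjusted p = 0.0746).

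The remaining calls upon TMZ were small. In Surv-GFP, ADAMTS4 was lower (log2 fold change -0.31 ± 0.09 SE, adjusted p = 0.00681) and ADAMTS15 higher (log2 fold change 0.33 ± 0.12 SE, adjusted p = 0.0271). ADAMTS4 lost its call without the untreated or TMZ replicate a (adjusted p 0.185 and 0.145), and ADAMTS15 with DESeq2 or without the untreated replicate a or either TMZ replicate (adjusted p 0.0881 to 0.243). In SurvNESmut-GFP, ADAMTS17 was higher (log2 fold change 0.33 ± 0.11 SE, adjusted p = 0.0279), a call lost with DESeq2 and without either untreated replicate or the TMZ replicate a (adjusted p 0.102 to 0.249). Its difference between the clones was 0.35 ± 0.15 SE (adjusted p = 0.0717) and passed with library size alone (adjusted p = 0.0397) or without the SurvNESmut-GFP TMZ replicate b (adjusted p = 0.0202). ADAMTS5, ADAMTS13, ADAMTS20 and TIMP1 passed neither in the TMZ comparisons nor in their difference, with log2 fold changes from -0.28 (ADAMTS5 in Surv-GFP) to 0.35 (ADAMTS13 in SurvNESmut-GFP). The 95% interval of the ADAMTS5 change in Surv-GFP reached from -1.03 to 0.47 on the log2 scale.

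The next comparison set the 2 clones against each other. Without TMZ, 10 of the 24 tested members were higher and 10 lower in SurvNESmut-GFP (41.7% each), against 34.7% and 29.4% of all tested genes, and 9 (37.5%) differed at least 2-fold, against 15.6%. After TMZ, 11 members were higher and 9 lower (45.8% and 37.5%), against 34.5% and 34.7%, and 11 (45.8%) differed at least 2-fold, against 18.2%. Median log2 fold changes were 0.14 and 0.14 over the members and 0.03 and -0.000527 over all tested genes. Both states gave a call in the same direction for 17 of the 24 members (70.8%) and in opposite directions for 0, against 46.4% and 4.68% of all tested genes. These counts include ADAMTS10 and MMP19, for which the reads of the clone with more of them were enough to pass the filter. Their calls between the clones are therefore not independent of the filter.

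The aggrecanases ADAMTS4 and ADAMTS5 were split between the clones. ADAMTS4 was at 85.9 and 71.2 CPM in untreated Surv-GFP, 57.7 and 68.9 CPM in Surv-GFP after TMZ, 2.28 and 2.17 CPM in untreated SurvNESmut-GFP and 1.64 and 2.39 CPM in SurvNESmut-GFP after TMZ, so that it was 35.3-fold lower in untreated (log2 fold change -5.14 ± 0.15 SE, adjusted p = 6.2e-14) and 31.5-fold lower in TMZ-exposed SurvNESmut-GFP (log2 fold change -4.98 ± 0.16 SE, adjusted p = 2.75e-13). ADAMTS5 was at 1.95 and 0.938 CPM in untreated Surv-GFP, 0.855 and 1.55 CPM in Surv-GFP after TMZ, 14.04 and 12.9 CPM in untreated SurvNESmut-GFP and 12.5 and 12.2 CPM in SurvNESmut-GFP after TMZ, 9.26-fold and 10.3-fold higher in SurvNESmut-GFP (adjusted p = 1.38e-09 and 1.57e-09). No library of one clone overlapped the other for either gene. Compared per kb of exon, ADAMTS4 was at 7.69 and ADAMTS5 at 0.159 CPM per kb in untreated Surv-GFP, and at 0.217 and 1.49 CPM per kb in untreated SurvNESmut-GFP, so the order of the aggrecanases was turned around. ADAMTS1, which lies next to ADAMTS5 on chromosome 21 (both within 131 kb in GENCODE 29), was 1.53-fold higher in untreated SurvNESmut-GFP (adjusted p = 0.000111) and did not differ past the threshold after TMZ (log2 fold change -0.13 ± 0.11 SE, adjusted p = 0.333), except without the Surv-GFP TMZ replicate a (adjusted p = 0.0446).

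**Figure D4:**
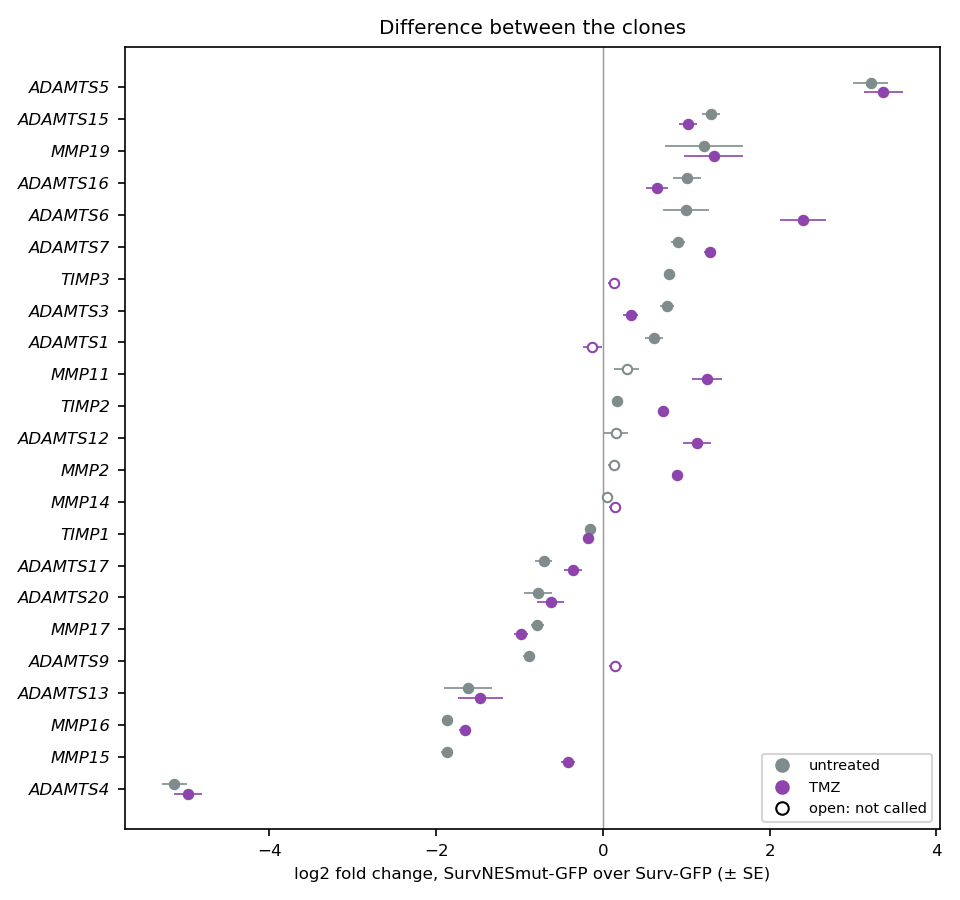
log2 fold change of SurvNESmut-GFP over Surv-GFP with SE bars for 23 tested members, untreated (grey) and TMZ-exposed (purple); open points did not pass the threshold. ADAMTS5 and ADAMTS4 stand at the ends, and MMP15, ADAMTS6, MMP2, MMP11, ADAMTS12 and ADAMTS9 shift most between the 2 states. ADAMTS10 is left out because its TMZ-exposed SurvNESmut-GFP libraries held 3 counts in all.

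Of the 4 tested membrane-type MMPs, 3 were lower in SurvNESmut-GFP in both states. Among all tested genes, the share with a lower level there was 29.4% untreated and 34.7% after TMZ. Whether the membrane-type MMPs as a group differ from other genes was not tested, and 4 genes are few. MMP16 was 3.65-fold lower untreated and 3.16-fold lower after TMZ (adjusted p = 2.95e-13 and 1.69e-12), and MMP17 1.73-fold and 1.97-fold (adjusted p = 1.89e-07 and 4.81e-08). MMP15 was 3.67-fold lower untreated (adjusted p = 1.67e-12) but only 1.34-fold lower after TMZ (adjusted p = 0.000241). MMP14 did not differ past the threshold in either state (log2 fold changes 0.05 ± 0.06 SE and 0.14 ± 0.06 SE, adjusted p = 0.516 and 0.0615), though without the SurvNESmut-GFP TMZ replicate a the TMZ-exposed value was 0.22, adjusted p = 0.00068. MMP2, MMP11 and ADAMTS12 passed after TMZ but not untreated, at 1.86-fold, 2.38-fold and 2.19-fold higher levels in SurvNESmut-GFP (adjusted p = 5.1e-09, 1.18e-05 and 1.25e-05). Without the Surv-GFP untreated replicate a, MMP2 also passed untreated (log2 fold change 0.22, adjusted p = 0.0267).

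Of the other ADAMTS genes, ADAMTS7, ADAMTS15, ADAMTS16, ADAMTS6 and ADAMTS3 were higher in SurvNESmut-GFP in both states. ADAMTS15, a versican and aggrecan protease, was at 7.801 and 9.32 CPM in untreated Surv-GFP, 10.9 and 10.6 CPM in Surv-GFP after TMZ, 21.6 and 20.5 CPM in untreated SurvNESmut-GFP and 22.96 and 20.6 CPM in SurvNESmut-GFP after TMZ, which is 2.46-fold and 2.03-fold higher (adjusted p = 2.3e-08 and 2.52e-07). ADAMTS7 was 1.87-fold and 2.43-fold higher, ADAMTS16 2.01-fold and 1.57-fold, and ADAMTS3 1.702-fold and 1.26-fold, the last with an adjusted p of 0.0526 after TMZ without the SurvNESmut-GFP TMZ replicate b. For ADAMTS16 the TMZ-exposed value fell to 0.41 on the log2 scale without the TMZ replicate a. ADAMTS6 was 1.99-fold higher untreated and 5.27-fold higher after TMZ (adjusted p = 0.00535 and 9.47e-07).

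Lower in SurvNESmut-GFP were ADAMTS13, ADAMTS10, ADAMTS17 and ADAMTS20 in both states. ADAMTS13, which cuts von Willebrand factor, was at 3.47 and 3.14 CPM in untreated Surv-GFP, 3.47 and 4.13 CPM in Surv-GFP after TMZ, 0.813 and 1.33 CPM in untreated SurvNESmut-GFP and 0.993 and 1.76 CPM in SurvNESmut-GFP after TMZ, 3.08-fold and 2.77-fold lower (adjusted p = 0.000107 and 0.000145). ADAMTS10 was 7.28-fold lower untreated (log2 fold change -2.86 ± 0.41 SE, adjusted p = 1.12e-05), and after TMZ its 3 counts against 39 gave a ratio of 11.9 with a counting interval of 3.77 to 60.02. For ADAMTS17 and ADAMTS20 the log2 fold changes were -0.71 ± 0.10 SE and -0.78 ± 0.17 SE untreated (adjusted p = 1.62e-05 and 0.000663). ADAMTS9 was lower untreated and did not pass after TMZ (log2 fold changes -0.89 ± 0.07 SE and 0.15 ± 0.07 SE, adjusted p = 2.36e-08 and 0.0868). MMP19 was 2.31-fold higher untreated (adjusted p = 0.0337) and 2.51-fold higher after TMZ (adjusted p = 0.00311), and both calls were lost with DESeq2 (adjusted p 0.168 and 0.0638). Without the Surv-GFP untreated replicate a or the SurvNESmut-GFP untreated replicate b, the untreated value was 0.79, adjusted p = 0.24 or 0.98, adjusted p = 0.192.

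Among the inhibitors, TIMP3 was 1.73-fold higher in untreated SurvNESmut-GFP (log2 fold change 0.79 ± 0.06 SE, adjusted p = 1.3e-08) and did not pass after TMZ (log2 fold change 0.13 ± 0.06 SE, adjusted p = 0.0796), where without the SurvNESmut-GFP TMZ replicate a it was 0.20, adjusted p = 0.000991. TIMP2 was 1.65-fold higher after TMZ (log2 fold change 0.73 ± 0.05 SE, adjusted p = 2.79e-09) and 1.13-fold higher untreated (adjusted p = 0.00749), where the call was lost with library size alone (adjusted p = 0.0549) or without the Surv-GFP untreated replicate b (adjusted p = 0.0629). TIMP1 was slightly lower in SurvNESmut-GFP, 1.11-fold untreated (adjusted p = 0.0498) and 1.13-fold after TMZ (adjusted p = 0.0218). The untreated call was lost without any untreated library other than the Surv-GFP replicate b, at -0.06, adjusted p = 0.533 without the Surv-GFP replicate a, and the TMZ-exposed call at -0.10, adjusted p = 0.249 without the Surv-GFP replicate b.

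Between the clones, a list of 5 fibroblast markers also moved: its summed level was 16.9 to 26.9 CPM in the Surv-GFP and 349 to 599 CPM in the SurvNESmut-GFP libraries. COL1A2, COL1A1 and FAP were higher in SurvNESmut-GFP, and THY1 had 0 to 11 counts. In either state 3 of 4 tested were higher (75%), against 34.7% of all tested genes untreated and 34.5% after TMZ. Of 9 glioma and neural markers 7 were tested. In untreated SurvNESmut-GFP 2 were higher and 4 lower (28.6% and 57.1%, against 34.7% and 29.4% of all tested genes). After TMZ 3 were higher and 3 lower (42.9% each, against 34.5% and 34.7%). In both states S100B, SOX2 and OLIG2 were lower and NES and CD44 higher, with 4635 to 14733 counts of S100B in Surv-GFP and 245 to 759 in SurvNESmut-GFP. The summed level of these 9 was 5969 to 6030 CPM in untreated Surv-GFP and 4660 to 4856 CPM in untreated SurvNESmut-GFP, and 3869 to 3955 and 4130 to 4267 CPM after TMZ. The part of both lists in the clone differences of the proteases was not tested. With TMZ, the summed level of 4 epithelial markers went from 156 to 157 up to 305 to 312 CPM in Surv-GFP and from 141 to 147 up to 205 to 236 CPM in SurvNESmut-GFP, carried by KRT8 and KRT18, while EPCAM and CDH1 stayed at 0 to 4 counts. The fibroblast markers went from 25.1 to 26.9 down to 16.9 to 18.02 CPM in Surv-GFP and from 599 down to 349 to 431 CPM in SurvNESmut-GFP. In Surv-GFP 3 of 4 tested fell (75%, against 28.9% of all tested genes), and in SurvNESmut-GFP 4 of 4 (100%, against 19.1%). Of the 7 glioma and neural markers, 5 fell and 1 rose in Surv-GFP (71.4% and 14.3%, against 28.9% and 30.1% of all tested genes). In SurvNESmut-GFP 4 fell and 2 rose (57.1% and 28.6%, against 19.1% and 18.6%). The part of these 3 lists in the TMZ effects was not tested. Endothelial markers summed to at most 1.08 CPM, and immune markers to 12.1 to 21.7 CPM. Of the 4 immune markers 1 was tested, which rose upon TMZ in both clones (log2 fold change 0.59 in Surv-GFP and 0.40 in SurvNESmut-GFP). It was also higher in untreated SurvNESmut-GFP (0.34), and its part in the protease values was not tested.

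The 23 untested members are 17 MMP genes, ADAMTS2, ADAMTS8, ADAMTS14, ADAMTS18, ADAMTS19 and TIMP4. Their highest count in any library was 17 (MMP8). In every library 17 of them had at most 3 counts, and MMP12, MMP20, MMP26, MMP27 and ADAMTS18 had 0 in all. The cluster of 9 MMP genes on chromosome 11, which holds the collagenases MMP1, MMP8 and MMP13 and the stromelysins MMP3 and MMP10, was untested as a whole. MMP1 had 0 to 5, MMP3 0 to 2 and MMP10 0 to 2 counts per library. The gelatinase MMP9 had 0 counts in both untreated Surv-GFP libraries and 1 in each after TMZ. In SurvNESmut-GFP it had 4 and 6 counts untreated and 10 and 1 after TMZ. With the 0 of the group set to 3 counts, MMP9 was 3.35-fold higher in untreated SurvNESmut-GFP than in untreated Surv-GFP (lower counting limit 2.25). MMP8, a neutrophil collagenase, had 9 and 17 counts in untreated Surv-GFP and 1 and 2 after TMZ (ratio 8.56, counting interval 2.62 to 44.2), and 7 to 8 in every SurvNESmut-GFP library. MMP13 had 0 counts in untreated Surv-GFP and 4 and 2 after TMZ, and 0 to 1 in SurvNESmut-GFP. Set to 3 counts in the same way, its ratio of TMZ-exposed to untreated Surv-GFP was 2.03 (lower counting limit 1.19), resting on 6 counts in all. ADAMTS14 had 6 and 4 counts in untreated Surv-GFP, 1 and 2 after TMZ and 0 in all SurvNESmut-GFP libraries. Between the untreated clones it was 3.32-fold lower in SurvNESmut-GFP with the 0 set to 3 counts (lower counting limit 2.23). MMP24 (MT5-MMP) had 1 to 10 counts per library, and MMP25, MMP28, MMP7, MMP21, MMP23A, MMP23B, ADAMTS2, ADAMTS8, ADAMTS19 and TIMP4 0 to 3, where MMP23A and MMP23B are near-identical copies whose reads may be split. The counting intervals and limits cover counting error only. They were not adjusted for the number of ratios computed, of which the printed ones are a part.

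Genes around the families were summarised by lists, each set against the shares of all tested genes called in the same comparison. Of 16 activators, inhibitors and cofactors, 14 were tested. In Surv-GFP 7 rose and 3 fell upon TMZ (50% and 21.4%, against 30.1% and 28.9% of all tested genes; median log2 fold change 0.20). In SurvNESmut-GFP 4 rose and 6 fell (28.6% and 42.9%, against 18.6% and 19.1%; median -0.13). The effect was larger for 3 and smaller for 8 in SurvNESmut-GFP (21.4% and 57.1%, against 16.6% and 20.2%; median difference -0.60). The median over all tested genes was between -0.001 and 0.03 in each of the 5 comparisons. PLAT, the tissue plasminogen activator, rose 1.61-fold in Surv-GFP (adjusted p = 2.98e-09) and had a log2 fold change of 0.11 ± 0.05 SE in SurvNESmut-GFP (adjusted p = 0.0634). THBS2, a matricellular protein that helps to clear MMP2, rose 1.83-fold in Surv-GFP (adjusted p = 2.18e-10) and fell 1.28-fold in SurvNESmut-GFP (adjusted p = 2.49e-05), a difference of -1.22 ± 0.07 SE (adjusted p = 1.86e-09). Between the clones, 10 of 14 were higher and 4 lower in untreated SurvNESmut-GFP (71.4% and 28.6%, against 34.7% and 29.4%), and 5 and 3 after TMZ (35.7% and 21.4%, against 34.5% and 34.7%). PLAT and THBS2 had means of 548 and 1926 CPM in untreated SurvNESmut-GFP, against 354 and 936 CPM in untreated Surv-GFP. After TMZ these means were 594 and 1508 CPM, against 569 and 1709 CPM.

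Of 22 matrix substrates, 19 were tested, and 2 rose and 9 fell in Surv-GFP (10.5% and 47.4%, against 30.1% and 28.9% of all tested genes; median -0.31). In SurvNESmut-GFP 4 rose and 8 fell (21.1% and 42.1%, against 18.6% and 19.1%; median -0.16). Their effect was larger for 6 and smaller for 3 in SurvNESmut-GFP (31.6% and 15.8%, against 16.6% and 20.2%). VCAN (versican), a substrate of several ADAMTS enzymes, had a log2 fold change of -0.02 ± 0.05 SE in Surv-GFP (adjusted p = 0.714) and rose 1.56-fold in SurvNESmut-GFP (adjusted p = 4.14e-08). COL4A2, a basement membrane collagen, fell 1.48-fold in Surv-GFP (adjusted p = 2.98e-08) and had -0.03 ± 0.05 SE in SurvNESmut-GFP (adjusted p = 0.656). COL7A1 had 0.28 ± 0.14 SE in Surv-GFP (adjusted p = 0.0848) and rose 1.88-fold in SurvNESmut-GFP (adjusted p = 3.61e-08). COL7A1 had a mean of 8.15 CPM in untreated Surv-GFP and 77.5 CPM in untreated SurvNESmut-GFP, and COL4A2 482 and 1407 CPM. VCAN lay the other way, at 817 and 407 CPM. In SurvNESmut-GFP against Surv-GFP, 12 substrates were higher and 6 lower untreated (63.2% and 31.6%, against 34.7% and 29.4%, median 0.71), and 11 and 4 after TMZ (57.9% and 21.1%, against 34.5% and 34.7%, median 0.75).

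Of 15 AP-1 and ETS factors, which are known regulators of MMP genes, all were tested, and 6 rose and 5 fell in Surv-GFP (40% and 33.3%, against 30.1% and 28.9% of all tested genes, median 0.04), while 8 rose and 4 fell in SurvNESmut-GFP (53.3% and 26.7%, against 18.6% and 19.1%, median 0.14). ATF3 rose 12.5-fold and 5.21-fold (adjusted p = 2.78e-14 and 1.4e-11), JUND 2.07-fold and 1.51-fold, and FOSL1 2.79-fold in Surv-GFP and by 0.14 ± 0.05 SE on the log2 scale in SurvNESmut-GFP, with a smaller effect in SurvNESmut-GFP for all of these (difference -1.26 ± 0.15 SE, -0.45 ± 0.10 SE and -1.34 ± 0.07 SE). The effect of TMZ was larger for 4 and smaller for 6 factors in SurvNESmut-GFP (26.7% and 40%, against 16.6% and 20.2%). Between the clones 7 were higher and 6 lower in either state (46.7% and 40%, against 34.7% and 29.4% untreated and 34.5% and 34.7% after TMZ). FOSL1 had a mean of 339 CPM in untreated SurvNESmut-GFP against 97.1 CPM in untreated Surv-GFP, and 373 against 271 CPM after TMZ. For ATF3 these means were 16.9 against 10.1 CPM and 87.9 against 127 CPM. For JUND they were 86.5 against 82.7 CPM and 130 against 171 CPM.

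The related ADAM family, which includes membrane-bound sheddases, had 10 of 21 listed members tested. In Surv-GFP 3 rose and 4 fell (30% and 40%, against 30.1% and 28.9% of all tested genes, median -0.20), and in SurvNESmut-GFP 1 rose and 1 fell (10% each, against 18.6% and 19.1%, median -0.08). The effect was larger for 4 and smaller for 3 in SurvNESmut-GFP (40% and 30%, against 16.6% and 20.2%). ADAM10 fell in both (1.45-fold and 1.29-fold, adjusted p = 2.46e-07 and 3.49e-05). ADAM17, the TNF-alpha converting enzyme that TIMP3 blocks, rose 1.64-fold in Surv-GFP (adjusted p = 7.3e-09) and had -0.08 ± 0.05 SE in SurvNESmut-GFP (adjusted p = 0.248), and ADAM19 rose 1.698-fold in Surv-GFP only, with differences of -0.80 ± 0.07 SE and -0.84 ± 0.10 SE (adjusted p = 4.89e-07 and 9.84e-06). Between the clones 4 ADAM genes were higher and 5 lower untreated (40% and 50%, against 34.7% and 29.4%), and 2 and 3 after TMZ (20% and 30%, against 34.5% and 34.7%). ADAM10, ADAM17 and ADAM19 were higher in untreated SurvNESmut-GFP. ADAM17 went from a mean of 73.4 to 121 CPM in Surv-GFP and from 138 to 131 CPM in SurvNESmut-GFP. For ADAM19 the means went from 45.3 to 76.9 CPM and from 74.4 to 70.8 CPM.

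Of 7 ADAMTS-like proteins, which lack a protease domain, 3 were tested, and 2 rose in each clone (66.7%, against 30.1% of all tested genes in Surv-GFP and 18.6% in SurvNESmut-GFP), THSD4 2.57-fold and 1.67-fold (adjusted p = 5.69e-10 and 4.7e-07) and ADAMTSL5 1.25-fold and 1.28-fold (adjusted p = 0.0349 and 0.0468). ADAMTSL4 had log2 fold changes of -0.36 ± 0.19 SE and 0.13 ± 0.20 SE, which did not pass. For THSD4 the effect was smaller in SurvNESmut-GFP (difference -0.62 ± 0.11 SE, adjusted p = 0.000321). The mean of THSD4 was 52.1 CPM in untreated SurvNESmut-GFP against 20.5 CPM in untreated Surv-GFP, and 87.1 against 52.8 CPM after TMZ. Of 5 astacins, 1 was tested: BMP1, the procollagen C-proteinase, rose 1.12-fold in Surv-GFP (adjusted p = 0.0444) and 1.31-fold in SurvNESmut-GFP (adjusted p = 0.000216). The difference of its effects did not pass (adjusted p = 0.0719). BMP1 was 1.16-fold higher in SurvNESmut-GFP after TMZ (adjusted p = 0.00803) and did not differ past the threshold untreated (adjusted p = 0.903).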

How the data were processed

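RNA of 8 libraries was sequenced by the authors with standard Illumina library protocols. The libraries fall into 4 groups of 2 by their labels. The study's figure legends speak of 2 independent biological replicates, measured in technical duplicates, for each clone. The labels do not say which of these the letters a and b mark, so p-values measure the spread between these libraries. The authors deposited raw read counts, whole numbers for each gene symbol. The submitters' processing notes name STAR 2.5.0b, Cufflinks 2.2.1 and edgeR. Not given in the sources used here were the counting program, the genome build, the annotation and the strandedness, so reads of overlapping genes cannot be assigned to a strand. The 2 rows that name no gene (11.2 to 14.3% without a feature and 1.19 to 1.28% ambiguous, of the total of each library) were left out. The authors' 5 comparison tables (log2 fold change, mean log2 CPM, F, p and FDR) were not used.

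The counts were fitted with edgeR 4.0.16 (R 4.3.3): TMM normalization (factors 0.978 to 1.02), filterByExpr by group, 1 model with the 4 group means on all 8 libraries, and the quasi-likelihood F test in its legacy form, with Benjamini-Hochberg adjustment over 14201 genes and a threshold of 0.05. The 5 contrasts were TMZ in each clone, the difference of these effects, and the clones untreated and after TMZ. CPM values use TMM-scaled library sizes, and levels per kb use merged exons of GENCODE 29 basic transcripts. The SE was taken from the fold change and F. For ADAMTS10 and MMP8, with 3 counts in a group, count ratios with 95% intervals are printed. For MMP9, MMP13 and ADAMTS14 a group at 0 counts was set to 3 counts, and the lower limit of the 95% interval is given. Other ratios with so few counts in a group are not printed. The fit was tried on simulated counts for 14201 genes, where 200 had a planted 2-fold change. For TMZ in Surv-GFP, edgeR recovered 192 of these and made 10 false calls. For the difference of effects it recovered 181 and made 16 false calls. DESeq2 recovered 184 and 170, with 7 and 3 false calls. In the real comparisons far more genes were called than were planted here, so these error rates may not apply to them. The alternatives were DESeq2 size factors, library size alone, no filter, DESeq2 1.42.0, the replicate letter as a term, and each library left out in turn. Same-lettered libraries did not deviate together (correlations of -0.0671 to 0.0832).

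The members and lists were chosen with earlier results of these data known. Named in full are tested members with a call of at least 2-fold in any contrast and the TIMPs, others by their ranges and counts, and of each list at most 3 genes with the smallest p in the TMZ comparisons, with CDKN1A and BIRC5 as checks of the labels. For 1 gene of the list of activators, inhibitors and cofactors, included in its counts, single values are not reported here.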

Additional observations from a re-analysis of the deposited data

Results flagged for a closer look

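For 11 of the 24 tested members the effect of TMZ differed between the clones in the test of the difference itself (edgeR, adjusted p under 0.05), against 16.6% of all tested genes with a larger and 20.2% with a smaller effect in SurvNESmut-GFP. All values are the log2 effect in SurvNESmut-GFP minus that in Surv-GFP.

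The effect was more positive in SurvNESmut-GFP for MMP15 (1.45), ADAMTS6 (1.40), ADAMTS9 (1.04), ADAMTS12 (0.97), MMP11 (0.97), MMP2 (0.76), TIMP2 (0.55) and ADAMTS7 (0.38). MMP15, MMP11 and ADAMTS12 fell in Surv-GFP and were not called in SurvNESmut-GFP, MMP2 and ADAMTS9 were called in opposite directions, and ADAMTS7 rose in both clones. The rise of MMP2 in SurvNESmut-GFP was small (log2 fold change 0.18). It did not pass with DESeq2 (adjusted p = 0.0531) or with the replicate block (adjusted p = 0.0513). The difference for ADAMTS7 was 0.27 without the Surv-GFP untreated replicate b. The value of ADAMTS6 rested in part on the SurvNESmut-GFP TMZ replicate a and was 0.85 without it.

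For TIMP3 (-0.66), ADAMTS1 (-0.74) and ADAMTS3 (-0.43) the effect was more negative in SurvNESmut-GFP. TIMP3 fell in both clones, and ADAMTS1 and ADAMTS3 were called in SurvNESmut-GFP and not in Surv-GFP. The difference for ADAMTS3 did not pass with DESeq2 (adjusted p = 0.0746). Untreated levels of these 3 genes were higher in SurvNESmut-GFP. Each construct is 1 clone, so NES status and clone cannot be told apart.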

How the results depend on the processing

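Of 79 called values over the members and contrasts, 61 kept direction and call under every alternative run, and the other 18 kept their direction but lost the call under at least 1 (8 with DESeq2, 3 with the replicate letter as a block, 2 with library size alone, 16 with a library left out). The count of members that rose upon TMZ in SurvNESmut-GFP was 8, 5 with DESeq2 and 4 to 8 with each library left out. The count of members changed at least 2-fold upon TMZ in SurvNESmut-GFP was 2, 1 with DESeq2 and 1 to 5 with each library left out, and the count with a TMZ effect at least 2-fold apart between the clones was 3 and 5 with library size alone. The other counts of members stayed within 1.5 times. With the replicate block, the count of risen members in SurvNESmut-GFP was 7, and the calls of MMP2 (log2 fold change 0.18, adjusted p = 0.0513) and TIMP2 (-0.14, adjusted p = 0.0568) upon TMZ in SurvNESmut-GFP and of TIMP1 between the untreated clones (-0.15, adjusted p = 0.0597) were lost. The letters share only a letter, and the block changed no other called value to uncalled. The cause of lost calls was not tested, though a left-out library leaves a group with 1 sample, which is then assumed to vary like the others.

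A change of sign was seen for 19 values, all uncalled in the main analysis. ADAMTS1 upon TMZ in Surv-GFP was -0.0080 with DESeq2 size factors, -0.0055 with library size alone, -0.0082 without the filter and -0.00026 with DESeq2, against 0.01. With library size alone, the difference for TIMP1 was 0.030 and MMP14 between the untreated clones -0.0070. With a library left out, the ranges of log2 fold changes spanned 0. For TMZ in Surv-GFP these were ADAMTS17 -0.0796 to 0.0302, ADAMTS1 -0.18 to 0.25, ADAMTS5 -0.79 to 0.34. For TMZ in SurvNESmut-GFP these were ADAMTS4 -0.44 to 0.11, ADAMTS15 -0.0301 to 0.13, MMP11 -0.43 to 0.098, ADAMTS13 -0.10 to 0.74. For difference of effects these were ADAMTS4 -0.12 to 0.42, ADAMTS20 -0.0617 to 0.39, MMP19 -0.47 to 0.53, MMP14 -0.0316 to 0.20, ADAMTS10 -4.40 to 0.29, ADAMTS5 -0.47 to 0.66, ADAMTS13 -0.30 to 0.54, TIMP1 -0.12 to 0.0813. For clones after TMZ these were MMP14 -0.0187 to 0.22, ADAMTS1 -0.31 to 0.0293, TIMP3 -0.026 to 0.20. Of 41 uncalled values, 27 stayed uncalled under every alternative. Depth limits MMP19, ADAMTS5 in Surv-GFP, ADAMTS10 in SurvNESmut-GFP and the 23 untested members, all with few counts.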
